A study of Mus musculus with 6 samples.

Results

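The tumour necrosis factor (TNF) superfamily of ligands and receptors was followed in the livers of mouse embryos that cannot edit RNA through ADAR1. Members were the genes whose symbol starts with Tnfsf or Tnfrsf, together with Tnf, Lta, Ltb, Fas, Fasl, Cd40, Cd27 and Cd70. The rule found 39 gene entries with 38 symbols among 37576 counted genes, as Tnfrsf22 is listed as 2 entries. The livers came from C57BL/6 embryos at embryonic day 12.5, and RNA of the whole dispersed liver was sequenced. Wild-type livers 2 (male), 15 and 17 (both female) were compared with livers 6, 16 and 19 (all male) of genotype Adar1E861A/E861A, in which both copies of the ADAR1 gene carry the E861A change that removes its editing activity. The embryos were homozygous, so the change was not limited to 1 cell type of the liver. Genotype was partly tied to sex, since wild type 2 was the one male control. The labels number the livers but do not say that each came from a separate embryo, so p-values measure the spread between these samples, which may be technical.

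Libraries held 35280460 to 43733715 reads in genes, of which 11803 to 15186 per library fell on members. Levels are given in CPM, reads per 1000000 of the scaled library total. Adar, the gene that carries the E861A change, stood at 56.7, 79.0 and 57.3 CPM in wild type 2, 15 and 17 and at 274.9, 344.5 and 333.8 CPM in E861A 6, 16 and 19, which does not check the change itself because no part of the gene is deleted. Liver identity was checked on 5 hepatoblast markers, none of them at 0 and 2 of them called higher (Hnf4a and Krt18), with a summed level of 14344 to 18482 CPM in wild type and 17564 to 25625 CPM in E861A.

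Ligands of this family are mostly membrane proteins that act as trimers on neighbouring cells, and some are cut off and circulate. Their receptors fall into groups by what the tail inside the cell binds. Death domain receptors recruit adaptors that can activate caspase-8 or the NF-kB pathway, receptors without a death domain bind TRAF adaptors and signal mainly to NF-kB, and decoy receptors take up ligand without passing on the full signal. In blood-forming tissue the family is known for control of lymphocyte survival, of inflammation and of cell death, and several members are known targets of interferon, NF-kB or p53.

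Of the 39 entries, 30 had enough reads to be tested, and 11 were higher and 2 lower in E861A. A gene was called where edgeR's quasi-likelihood test gave a Benjamini-Hochberg adjusted p under 0.05 over all 16511 genes tested, of which 7.77% were called higher and 4.26% lower. The called share of tested members was 36.7% higher and 6.67% lower, and their median log2 fold change was 0.86 against 0.04 for all tested genes. Tested members were those with enough reads in at least 1 genotype, so this median does not cover the 9 entries below the filter. A member tested only for its reads in E861A, such as Tnfsf8, could not be called lower. The ligands called higher were Tnfsf8, Tnfsf10, Tnf, Ltb and Tnfsf9, and no ligand was called lower among the 9 tested. Of 21 tested receptor entries 6 were higher (Tnfrsf9, Tnfrsf23, Tnfrsf12a, Cd40, Tnfrsf1b and Tnfrsf1a) and 2 lower (Tnfrsf14 and Tnfrsf21). These are bulk values, in which fewer cells of a type and less RNA per cell cannot be told apart.

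**Figure D1:**
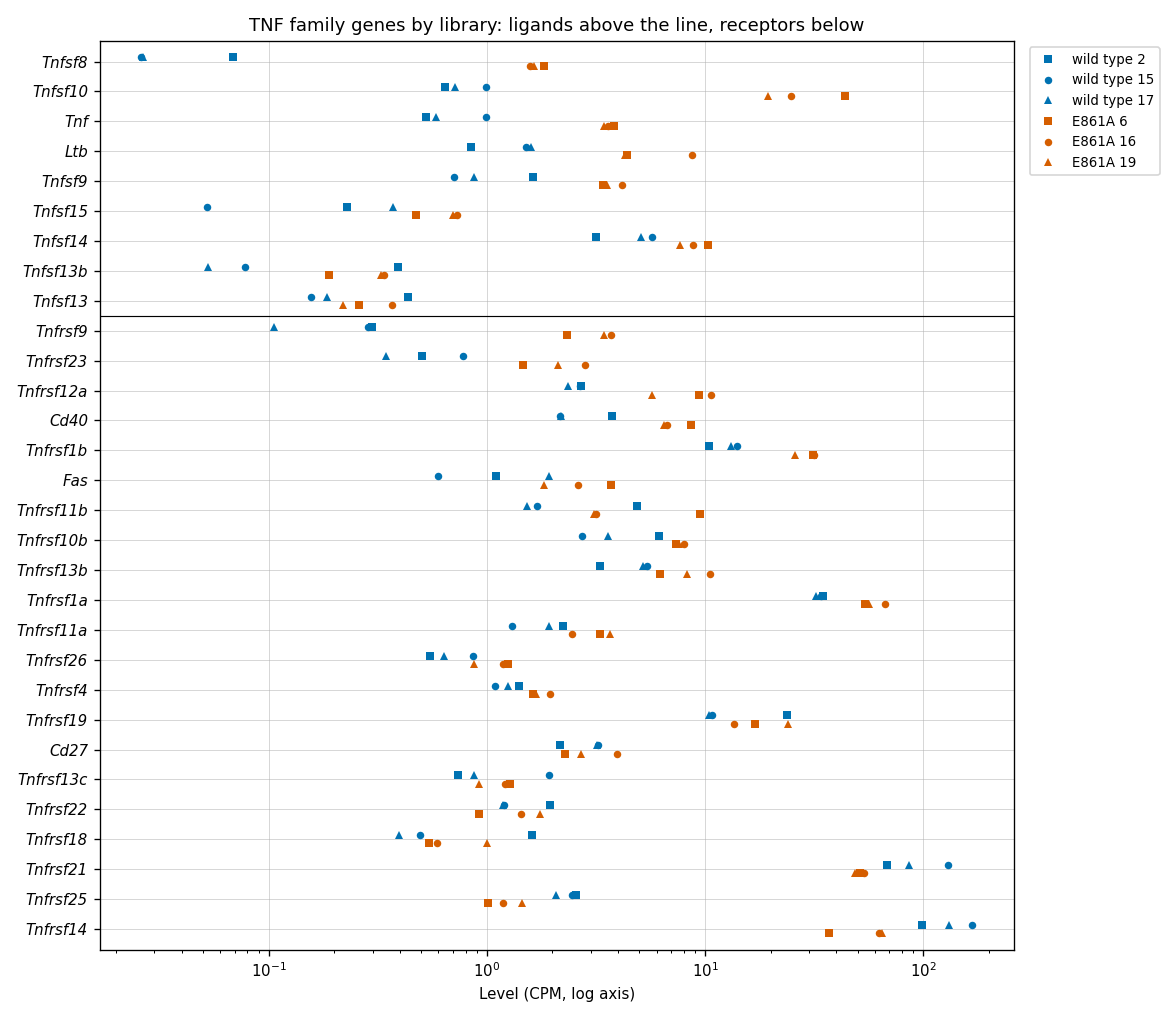
Level of each tested TNF family gene in every library, in CPM on a log axis, with blue for wild type and orange for E861A and a marker shape for each library. The 3 orange points lie to the right of the 3 blue points for Tnfsf8, Tnfsf10, Tnf and Ltb, and to the left for Tnfrsf14 and Tnfrsf21.

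Start-site regions were searched for motifs of the pathways above, since several members were higher together. RefSeq (GRCm38.p6) held a region from 250 bases before to 50 bases after the start for 30 of the 38 symbols. No entry was matched for Cd40, Cd70, Tnfrsf10b, Tnfrsf11b, Tnfrsf22, Tnfrsf26, Tnfsf4 and Tnfsf9. Motifs were searched on both strands: the core of the interferon-stimulated response element (GAAA, any 2 bases, GAAA), the gamma-activated site (TTCNNNGAA), the NF-kB consensus and the p53 decamer, the last 2 by their usual degenerate letters. The first was found in 4 of the 30 members and 3.99% of 27025 genes, the second in 9 and 9.55%, the NF-kB consensus in 4 and 9.55%, and the p53 decamer in 3 and 9.55%. Of the 9 matched genes called higher, 1, 4, 2 and 0 held them in that order. A gene with more than 1 region was counted where any of its regions held a match. The regions of Tnfsf10, Tnfsf8 and Tnf held none of these letters in this window, and a match is a description of sequence only.

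The 4 regions below are those of 3 genes called higher with matches of 2 motifs each, and of the called-lower Tnfrsf14, which holds a match too. They are printed 5′ to 3′ toward the gene, for the 250 bases before the start. Capitals mark the matches, and overlapping matches run together. No match of one motif overlapped that of another in these 4 regions. RefSeq held 2 regions for Tnfrsf9, and only the printed region held a match. In Tnfrsf9 (chr4:150927749-150927998, plus strand) a gamma-activated site begins 136 bases before the start and 2 overlapping NF-kB matches begin at 43 and 42 bases. In Ltb (chr17:35194257-35194506, plus strand) these begin at 172 and 87 bases. In Tnfrsf1b (chr4:145246871-145247120, minus strand) a gamma-activated site begins at 181 bases and the interferon element at 10 bases before the start. In Tnfrsf14 (chr4:154928078-154928327, minus strand) the interferon element begins at 64 bases.
Tnfrsf9: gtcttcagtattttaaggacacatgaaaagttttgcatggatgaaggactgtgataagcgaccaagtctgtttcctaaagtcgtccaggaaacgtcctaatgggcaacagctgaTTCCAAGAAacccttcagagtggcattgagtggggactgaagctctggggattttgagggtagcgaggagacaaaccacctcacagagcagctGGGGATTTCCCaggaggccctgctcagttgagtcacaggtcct
Ltb: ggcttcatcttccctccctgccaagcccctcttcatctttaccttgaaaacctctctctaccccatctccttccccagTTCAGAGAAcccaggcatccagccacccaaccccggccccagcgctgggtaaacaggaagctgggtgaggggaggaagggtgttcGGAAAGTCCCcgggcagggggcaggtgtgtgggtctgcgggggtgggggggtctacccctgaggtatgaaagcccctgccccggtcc
Tnfrsf1b: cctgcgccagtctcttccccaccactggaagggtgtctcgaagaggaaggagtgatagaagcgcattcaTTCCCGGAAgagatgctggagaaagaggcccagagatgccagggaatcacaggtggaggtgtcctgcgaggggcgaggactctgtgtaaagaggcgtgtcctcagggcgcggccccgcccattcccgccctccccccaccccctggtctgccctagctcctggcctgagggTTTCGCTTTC
Tnfrsf14: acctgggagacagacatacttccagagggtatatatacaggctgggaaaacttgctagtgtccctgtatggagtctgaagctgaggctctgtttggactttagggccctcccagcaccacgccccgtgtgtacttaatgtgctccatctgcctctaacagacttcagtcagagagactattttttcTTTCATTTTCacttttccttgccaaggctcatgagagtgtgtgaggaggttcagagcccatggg

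Tnfsf10 encodes TRAIL, a ligand that triggers cell death through TRAIL receptors and is a known interferon target. It is on chromosome 3 (NCBIM37, 27215950 to 27241349, plus strand). Its level was 0.644, 0.991 and 0.715 CPM in wild type 2, 15 and 17 and 44.0, 24.7 and 19.4 CPM in E861A 6, 16 and 19. The groups were far apart, and E861A 6 was the highest library. The fitted log2 fold change was 5.23 (SE 0.39; edgeR adjusted p = 0.000153), which is 37.4-fold.

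Tnfsf8, the CD30 ligand of activated lymphoid and myeloid cells, went from almost no reads to a low but even level. It is on chromosome 4 (63492342 to 63522381, minus strand). Wild type 2, 15 and 17 held 3, 1 and 1 reads, or 0.0690, 0.0261 and 0.0265 CPM. E861A 6, 16 and 19 held 77, 56 and 75 reads, or 1.82, 1.58 and 1.64 CPM. Its log2 fold change was 5.24 (SE 0.47; edgeR adjusted p = 0.000384), and the ratio of reads was 40.3 with an exact 95% interval of 17 to 125.5 for counting error only. Its receptor gene Tnfrsf8 (CD30) had 7 reads in wild type and 12 in E861A, too few to be tested.

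Tnf encodes the founding ligand of the family, an inflammatory cytokine made mostly by myeloid cells (chromosome 17, 35336326 to 35338952, minus strand). Its level was 0.529, 0.991 and 0.583 CPM in wild type 2, 15 and 17 and 3.83, 3.59 and 3.46 CPM in E861A 6, 16 and 19. The E861A libraries were close together, and the groups did not overlap. The log2 fold change was 2.37 (SE 0.34; edgeR adjusted p = 0.00437).

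Ltb, the membrane-bound partner of lymphotoxin alpha whose start-site region is printed above, stood at 0.851, 1.51 and 1.59 CPM in wild type 2, 15 and 17 and at 4.40, 8.69 and 4.31 CPM in E861A 6, 16 and 19. E861A 16 was the highest library, and the log2 fold change was 2.14 (SE 0.40; edgeR adjusted p = 0.0139). Lta, which encodes lymphotoxin alpha itself, had 7 reads in wild type (1, 4 and 2) and 39 in E861A (12, 20 and 7) and was below the filter. Ltb, Tnf and Lta lie side by side within 10.9 kb of chromosome 17 (35331384 to 35342296), with no overlap between their gene models in GENCODE M1. All 3 held more CPM in each E861A library than in any wild-type library.

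Tnfsf9, the 4-1BB ligand that costimulates T cells (chromosome 17, 57244808 to 57247180, plus strand), stood at 1.63, 0.704 and 0.874 CPM in wild type 2, 15 and 17 and at 3.40, 4.15 and 3.54 CPM in E861A 6, 16 and 19. Wild type 2 was the highest control, and the groups did not overlap. The log2 fold change was 1.78 (SE 0.37; edgeR adjusted p = 0.0207). Its gene model overlaps Gm11110 on the opposite strand, which had 81 reads in wild type and 163 in E861A against 131 and 453 for Tnfsf9. Whether counting used strand is not given in the sources used here, so part of these reads could belong to either gene.

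Its receptor gene changed in the same direction. Tnfrsf9, which encodes 4-1BB (CD137), is known to be induced on activated cells through NF-kB, and the matches in its start-site region are shown above. It lies on chromosome 4 (150288671 to 150320211, plus strand). It stood at 0.299, 0.287 and 0.106 CPM in wild type 2, 15 and 17. E861A 6, 16 and 19 held 2.34, 3.70 and 3.46 CPM, each above every control. The log2 fold change of 3.75 (SE 0.46; edgeR adjusted p = 0.00212) was the largest fitted among the 21 tested receptor entries.

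The remaining ligands did not pass. Tnfsf14 (LIGHT, a ligand of Tnfrsf14 and Ltbr) stood at 3.15, 5.74 and 5.08 CPM in wild type 2, 15 and 17 and at 10.3, 8.81 and 7.66 CPM in E861A 6, 16 and 19, without overlap (log2 fold change 0.94, SE 0.27; edgeR adjusted p = 0.0654). The same gene passed under the DESeq2 Wald test and with a filter of 1 CPM in 3 libraries. Tnfsf15 (TL1A, made by endothelial and myeloid cells) lay at 0.0521 to 0.371 CPM in wild type and 0.473 to 0.734 CPM in E861A (1.53, SE 0.60). The B cell survival factors Tnfsf13b (BAFF; 0.67, SE 0.72) and Tnfsf13 (APRIL; 0.10, SE 0.51) were each under 0.5 CPM in each library. Tnfsf13b stood at 2.05 without wild type 2 (edgeR adjusted p = 0.0519) and at -0.45 when sex entered the fit. Tnfsf13 also overlaps 2 other gene models, so its count is uncertain.

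The ligands below the filter, other than Lta above, had few reads. Fasl, the Fas ligand of cytotoxic lymphocytes, had 9 reads in wild type and 17 in E861A, and Tnfsf11 (RANKL) had 25 and 12. Tnfsf4 (OX40 ligand) had 2 and 6 reads, Tnfsf18 (GITR ligand) had 4 and 4, and Cd70 had no read in any library. The T cell receptor subunit genes Cd3e and Cd3g, markers of T cells, had 1 and 37 reads over all 6 libraries and were below the filter. Cd3g had 20 of these in wild type and 17 in E861A. Of the 11 lymphoid and natural killer cell markers followed, 6 were tested, with Lck higher and Rag1 lower. Their summed level was 10.05 to 14.4 CPM in wild type and 26.6 to 30.7 CPM in E861A, of which Lck alone gave 5.01 to 5.24 and 18.5 to 23.7 CPM.

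**Figure D2:**
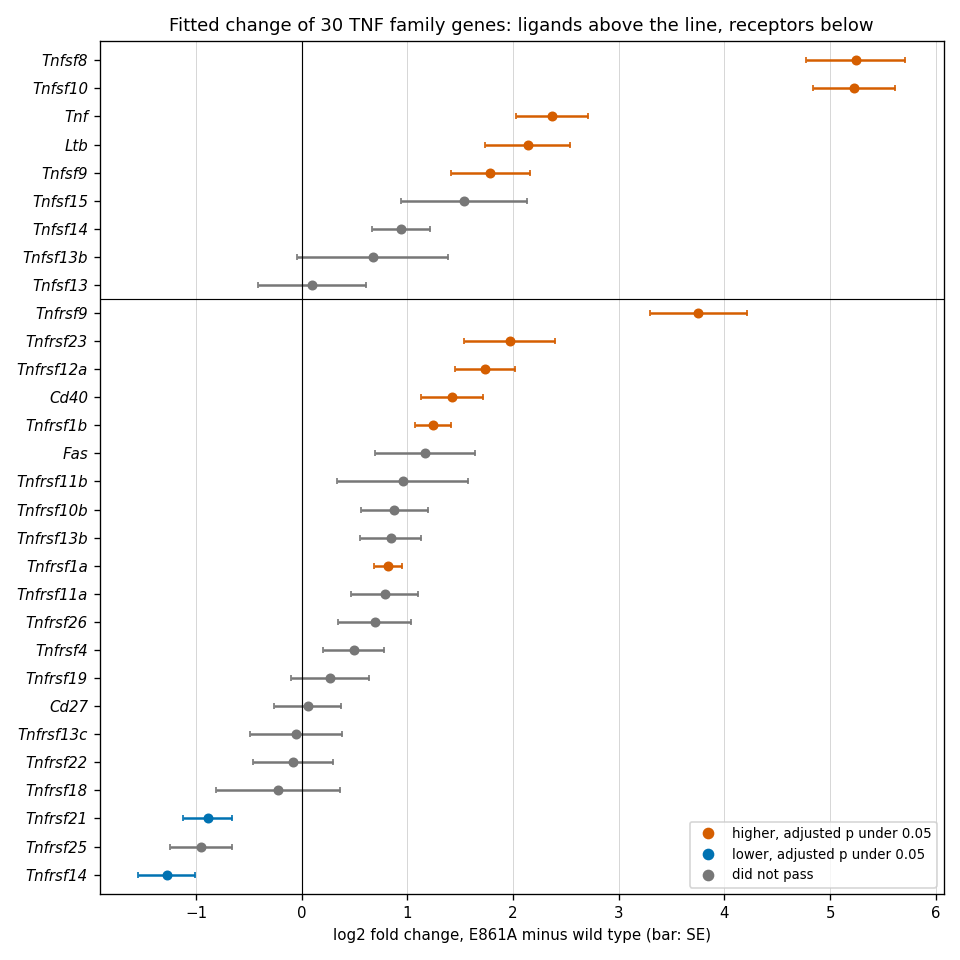
Fitted log2 fold change of E861A minus wild type with its SE for each of the 30 tested entries, with orange for those called higher, blue for those called lower and grey for those that did not pass. Ligands lie from 0.10 (Tnfsf13) to 5.24 (Tnfsf8), and receptors from -1.28 (Tnfrsf14) to 3.75 (Tnfrsf9).

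Among receptors, both TNF receptors rose. Tnfrsf1a, the broadly expressed death domain receptor of TNF (chromosome 6, 125299380 to 125312502, plus strand), stood at 34.6, 33.9 and 32.3 CPM in wild type 2, 15 and 17 and at 54.2, 67.0 and 56.3 CPM in E861A 6, 16 and 19. The controls were nearly equal and the groups did not overlap (log2 fold change 0.82, SE 0.14; edgeR adjusted p = 0.00854). Tnfrsf1b, the second TNF receptor, which has no death domain and binds TRAF2 (chromosome 4, 144803366 to 144836773, minus strand), stood at 10.4, 14.0 and 13.2 CPM in wild type and at 31.4, 31.7 and 25.9 CPM in E861A, in the same order of libraries. The change of Tnfrsf1b was 1.24 (SE 0.17; edgeR adjusted p = 0.00368).

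Cd40, the receptor through which T cells license antigen-presenting cells (chromosome 2, 164881127 to 164898448, plus strand), stood at 3.75, 2.16 and 2.20 CPM in wild type 2, 15 and 17 and at 8.60, 6.66 and 6.52 CPM in E861A 6, 16 and 19. Wild type 2 was the highest control, and the log2 fold change was 1.42 (SE 0.30; edgeR adjusted p = 0.0204). Its ligand gene Cd40lg had no read in any library. Tnfrsf12a, which encodes the TWEAK receptor Fn14, known to be induced by tissue injury (chromosome 17, 23812414 to 23814416, minus strand), stood at 2.69, 2.69 and 2.36 CPM in wild type and at 9.41, 10.7 and 5.71 CPM in E861A, in the same order. Tnfrsf12a changed by 1.74 (SE 0.28; edgeR adjusted p = 0.00805), and E861A 19 was the lowest of the mutants. Its gene model overlaps Hcfc1r1 on the opposite strand, which had 1814 reads in wild type and 2132 in E861A, a smaller relative difference than the 309 and 1037 reads of Tnfrsf12a.

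Of the receptors of TRAIL, a decoy passed the test and the death receptor did not. Tnfrsf10b, the one mouse death receptor of TRAIL and a known p53 target, stood at 6.16, 2.74 and 3.60 CPM in wild type 2, 15 and 17 and at 7.38, 8.02 and 7.57 CPM in E861A 6, 16 and 19. The groups did not overlap, but wild type 2 was close to the mutants, and the change did not pass (log2 fold change 0.88, SE 0.31; edgeR adjusted p = 0.116). Without wild type 2, which leaves no male control, it passed (1.26; edgeR adjusted p = 0.0147), while the fit with sex gave 0.31 (adjusted p = 0.582) and males alone gave 0.32 (adjusted p = 0.709). Tnfrsf23, which encodes a mouse decoy receptor of TRAIL (chromosome 7, 150851714 to 150871777, minus strand), stood at 0.506, 0.782 and 0.344 CPM in wild type and 1.47, 2.82 and 2.12 CPM in E861A (1.97, SE 0.43; edgeR adjusted p = 0.0238). Its close copy Tnfrsf22, also a decoy, lay at 1.19 to 1.95 CPM in controls and 0.922 to 1.75 CPM in mutants (-0.08, SE 0.38). Of the distinct 50-base words in the Tnfrsf23 transcripts 21.5% also occur in those of Tnfrsf22, so the division of reads between them is uncertain. The difference between these changes was not tested.

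Fas, a death receptor also known as a p53 target, stood at 1.10, 0.600 and 1.93 CPM in wild type 2, 15 and 17 and at 3.71, 2.63 and 1.84 CPM in E861A 6, 16 and 19. Wild type 17 was above E861A 19, so the groups overlapped (1.17, SE 0.48; edgeR adjusted p = 0.157). Tnfrsf25, the death receptor of TL1A, stood at 2.07 to 2.55 CPM in wild type and 1.02 to 1.44 CPM in E861A, without overlap, and did not pass (-0.95, SE 0.29; edgeR adjusted p = 0.0767). DESeq2 called it lower (adjusted p = 0.0299).

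Both receptors called lower had the highest levels per length of the tested members in wild type. Tnfrsf14 encodes HVEM, a receptor of LIGHT and of the inhibitory protein BTLA. Its gene lies on chromosome 4 (154296319 to 154302672, minus strand). It stood at 98.8, 167.7 and 131.6 CPM in wild type 2, 15 and 17 and at 36.9, 62.5 and 64.6 CPM in E861A 6, 16 and 19, and the highest mutant stayed under the lowest control (log2 fold change -1.28, SE 0.27; edgeR adjusted p = 0.0225). Tnfrsf21, the death domain receptor DR6 (chromosome 17, 43153504 to 43226137, plus strand), stood at 68.3, 129.8 and 86.2 CPM in wild type and at 51.1, 53.6 and 48.7 CPM in E861A (-0.89, SE 0.23; edgeR adjusted p = 0.0429). In both genes wild type 15 was the highest control and wild type 2 the lowest. The 6 erythroid markers followed (Klf1, Slc4a1 and Epb4.2 called lower, none at 0) had the same order within wild type. Their summed level was 5019, 11083 and 6946 CPM in wild type 2, 15 and 17 and 2920, 2564 and 2429 CPM in E861A 6, 16 and 19. Among the mutants the order was not shared. The sum was highest in E861A 6, where Tnfrsf14 was lowest, and Tnfrsf21 was highest in E861A 16. The part of these markers in the lower levels of Tnfrsf14 and Tnfrsf21 was not tested. Both calls were lost when sex entered the fit (-0.86 and -0.42), among males alone (-0.85 and -0.41), and when any 1 of wild type 15 or 17 or E861A 6 or 16 was left out. Tnfrsf21 also lost its call without E861A 19.

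The other receptors did not pass. Tnfrsf13b (TACI, a receptor of BAFF and APRIL) lay at 3.31 to 5.42 CPM in wild type and 6.22 to 10.5 CPM in E861A, without overlap (0.84, SE 0.29; edgeR adjusted p = 0.104). Tnfrsf11a (RANK, a regulator of osteoclasts) lay at 1.30 to 2.23 CPM in controls and 2.46 to 3.68 CPM in mutants (0.79, SE 0.32), also without overlap. So did Tnfrsf26 at 0.552 to 0.860 and 0.875 to 1.25 CPM (0.69, SE 0.35) and the T cell costimulator Tnfrsf4 (OX40) at 1.09 to 1.40 and 1.63 to 1.95 CPM (0.49, SE 0.29). Genotypes overlapped for Cd27, another costimulator, at 2.16 to 3.23 and 2.29 to 3.95 CPM (0.05, SE 0.32), and for the BAFF receptor Tnfrsf13c at 0.736 to 1.93 and 0.919 to 1.28 CPM (-0.05, SE 0.43). They also overlapped for Tnfrsf18 (GITR, a receptor of regulatory T cells) at 0.397 to 1.61 and 0.544 to 1.006 CPM (-0.23, SE 0.58). Gene models of other genes overlap those of Cd27 and Tnfrsf18 on the opposite strand, so these counts are uncertain. The plasma cell receptor Tnfrsf17 (BCMA) had 4 reads in each genotype. Over all tested entries 18 had every E861A library above every control and 3 had every one below, and among all tested genes these shares were 19.4% and 14.5%.

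Receptors known from stromal cells had a wider range within wild type than the difference of the genotype means. Tnfrsf19 (TROY) stood at 23.8, 10.8 and 10.4 CPM in wild type 2, 15 and 17 and at 16.9, 13.5 and 23.9 CPM in E861A 6, 16 and 19 (0.27, SE 0.37). Tnfrsf11b, which encodes osteoprotegerin, the soluble decoy of RANKL, stood at 4.90, 1.69 and 1.54 CPM in wild type and at 9.53, 3.16 and 3.08 CPM in E861A (0.95, SE 0.62). Its change was 1.70 without wild type 2, 0.20 without E861A 6 and 0.10 when sex entered the fit, with no call in these. For both genes wild type 2 was the highest control, as it was for the 7 mesenchymal and stellate cell markers, none of them called or at 0. These markers include Ngfr, itself a receptor of the family under another symbol. Their summed level was 1429, 381.3 and 883.1 CPM in wild type 2, 15 and 17 and 891.7, 498.7 and 1236 CPM in E861A 6, 16 and 19. Their part in these values was not tested.

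**Figure D3:**
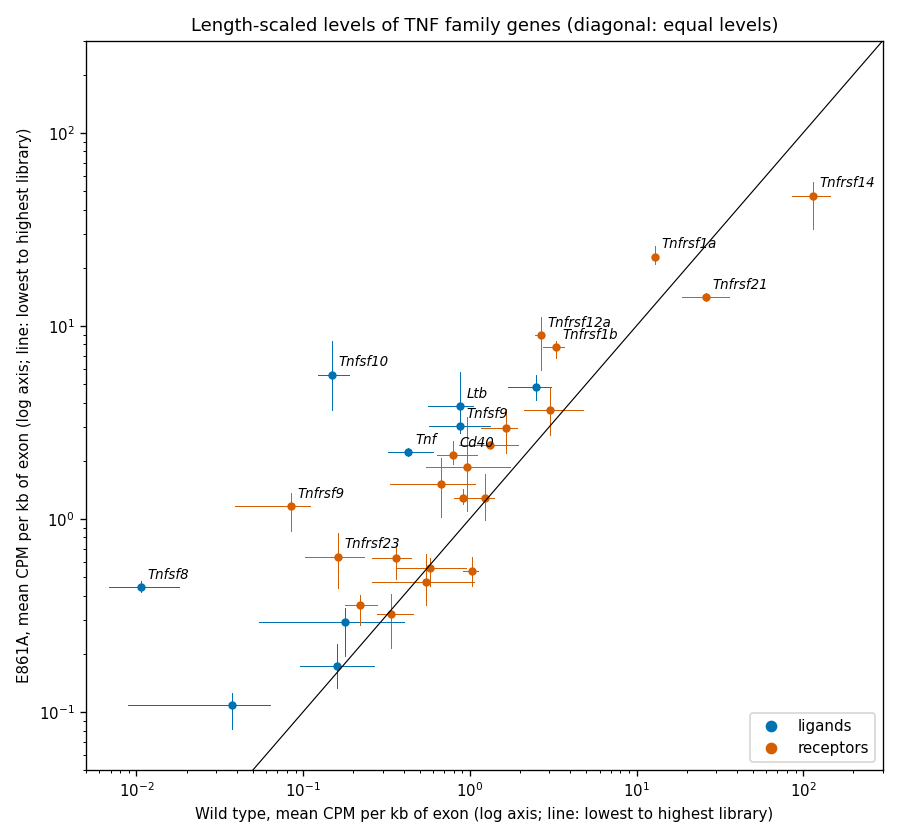
Mean level of each tested TNF family gene in wild type (x axis) and E861A (y axis) in CPM per kilobase of exon, on log axes, with lines from the lowest to the highest library, ligands in blue, receptors in orange and a diagonal for equal levels. Tnfrsf14, at 114.6 in wild type and 47.2 in E861A, is the highest point on both axes, and Tnfsf8 and Tnfsf10 lie farthest above the diagonal.

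Levels of different genes were compared per length, as CPM per kilobase of exon in GENCODE M1. In wild type the order was led by Tnfrsf14 at 114.6 ± 29.7, Tnfrsf21 at 26.1 ± 8.73 and Tnfrsf1a at 12.9 ± 0.442 (SD, n = 3 each). Next came Tnfrsf1b at 3.29 ± 0.490, Tnfrsf19 at 3.03 ± 1.54, Tnfrsf12a at 2.68 ± 0.198 and Tnfsf14 at 2.50 ± 0.723 (SD, n = 3 each), which did not differ from their neighbours beyond this spread. In E861A Tnfrsf14 was at 47.2 ± 13.3, Tnfrsf1a at 22.8 ± 2.66 and Tnfrsf21 at 14.1 ± 0.685, so that the means of Tnfrsf1a and Tnfrsf21 changed places. They were followed by Tnfrsf12a at 8.93 ± 2.68, Tnfrsf1b at 7.77 ± 0.852 and Tnfsf10 at 5.57 ± 2.46 (SD, n = 3 each), which again lay within each other's spread or next to it. Tnfsf10 was at 0.149 ± 0.0348 in wild type, below Tnf at 0.428 ± 0.154 and Ltb at 0.869 ± 0.268. In E861A it was above Tnf at 2.21 ± 0.116 and Ltb at 3.83 ± 1.65 in mean level (SD, n = 3 each). Its lead over Ltb was smaller than its own SD of 2.46, but not smaller than the SD of Ltb.

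Positions were also compared among members. With gaps of at most 200 kb between neighbours, 8 groups of members were found. In several of these groups the calls were mixed. On chromosome 4, Tnfsf8 was called higher and its neighbour Tnfsf15 was not, and Tnfrsf1b was called higher beside Tnfrsf8, which had 19 reads in all. On chromosome 17, Tnfsf9 was called higher, Tnfsf14 did not pass and Cd70, between them, had no read. On chromosome 7, Tnfrsf23 was called higher and Tnfrsf22 and Tnfrsf26 did not pass. On chromosome 6, Tnfrsf1a was called higher and Cd27 did not pass. Of these tested neighbours without a call, Tnfsf15, Tnfsf14 and Tnfrsf26 had every E861A library above every control, and Tnfrsf22 and Cd27 did not. Among all tested genes 19.4% had every E861A library above every control. Whether neighbours differed in their change was not tested.

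Family members with other symbols and the proteins that carry the signal were followed through 5 lists, of which 60 entries matched and 56 were tested, with 22 higher and 2 lower. The background over all genes was 7.77% higher and 4.26% lower, and the median log2 fold change of the 56 was 0.48. In the family list 2 of 5 tested genes rose. Eda2r, a receptor of ectodysplasin A2 and a known p53 target, stood at 1.10, 0.600 and 0.847 CPM in wild type 2, 15 and 17 and at 8.63, 8.10 and 7.98 CPM in E861A 6, 16 and 19 (3.27, SE 0.29). Ltbr, the receptor of lymphotoxin and LIGHT, rose from 27.3 ± 2.34 to 46.9 ± 3.02 CPM (SD, n = 3 each; 0.78, SE 0.13). Relt (-0.67, SE 0.22) and the ligand gene Eda (0.46, SE 0.25) did not pass.

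Of 5 genes for the shedding of ligands and receptors from the cell surface, or for its control, 1 rose and 1 fell. The protease gene Adam10 stood at 398.8 ± 71.8 CPM in wild type and fell to 202.8 ± 44.5 (SD, n = 3 each; -0.98, SE 0.21), and the iRhom gene Rhbdf1 rose by 0.80 (SE 0.18). Rhbdf2, which helps the TNF-cleaving protease ADAM17 mature (0.48, SE 0.23), and the protease inhibitor gene Timp3 (-0.58, SE 0.21) did not pass.

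Of 20 tested adaptors and proximal kinases 5 rose and 1 fell, and the list's median was 0.13. Daxx, a nuclear protein first described as a Fas adaptor and also known as an interferon target, rose from 52.3 ± 8.94 to 309.6 ± 32.9 CPM (2.56, SE 0.18). The inhibitor of apoptosis gene Birc3 rose from 12.7 ± 1.44 to 29.4 ± 3.81 CPM and Casp8, the initiator caspase of death receptors, from 32.0 ± 2.53 to 62.7 ± 7.07 CPM (SD, n = 3 each). Traf5 rose by 0.80 (SE 0.15). Outside the 4 genes of smallest p, and named after their values were seen, Birc2 rose by 0.49 (SE 0.12; edgeR adjusted p = 0.0378) and Map3k7, which encodes the kinase TAK1, fell by 0.50 (SE 0.12; edgeR adjusted p = 0.0371). Most of the adaptors themselves, among them Tradd (0.09, SE 0.19), Traf2 (-0.03, SE 0.16) and Ripk1 (-0.18, SE 0.18), named after their values were seen, did not pass.

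Of 9 genes of ubiquitin editing at TNF receptor complexes 4 rose and none of the 9 fell. Tnfaip3, which encodes the feedback enzyme A20, stood at 2.90, 3.39 and 3.23 CPM in wild type 2, 15 and 17 and at 12.9, 16.8 and 11.3 CPM in E861A 6, 16 and 19 (2.11, SE 0.22). Its partners Tnip1 (0.84, SE 0.18) and Tnip2 (0.78, SE 0.18) and the linear ubiquitin ligase gene Rnf31 (0.90, SE 0.20) rose by less in fitted value. Of 17 tested entries of TNF response targets 10 rose and none of the 17 fell, with a median of 1.84. Some of these, among them Cxcl1, Cxcl2 and Ccl20 with 6, 13 and 3 reads in wild type, were tested only for their reads in E861A. Such genes could not be called lower, so the count and the median lean toward higher values. The NF-kB subunit gene Relb rose from 2.34 ± 0.354 to 16.3 ± 2.46 CPM and the inhibitor gene Nfkbia from 10.1 ± 0.760 to 36.1 ± 5.64 CPM (SD, n = 3 each). The chemokine genes Ccl2 (4.97, SE 0.41) and Ccl20 (5.47, SE 0.51) rose from 0.734 and 0.0252 CPM to 23.1 and 1.25 CPM. With 3 reads in wild type, the ratio of reads of Ccl20 was 49.1 with an exact 95% interval of 16.5 to 240.7. Each other named call in these 5 lists had an edgeR adjusted p between 0.000109 (Daxx) and 0.0299 (Rhbdf1).

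**Figure D4:**
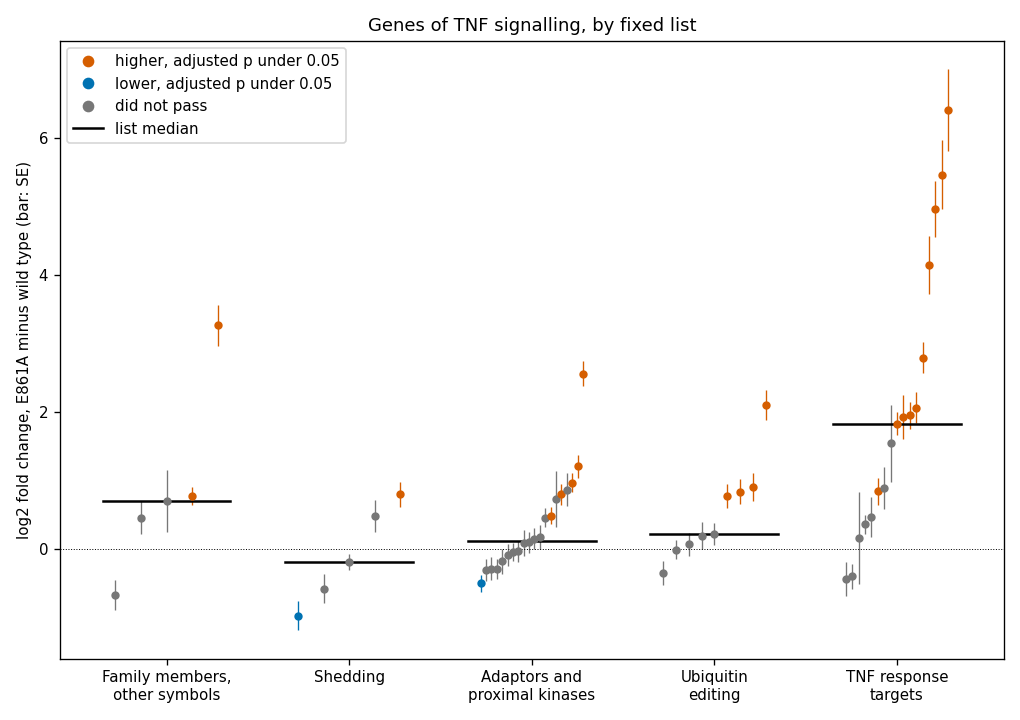
Fitted log2 fold change of E861A minus wild type with its SE for each tested gene of the 5 TNF signalling lists, with black lines for the list medians. Medians lie from -0.19 (shedding) to 1.84 (TNF response targets), and the adaptors cluster near 0 with Daxx at 2.56 apart from them.

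Some markers of other cell types and of tissue handling differed between genotypes too. Of 8 genes known to respond to tissue dissociation 5 were higher (Egr1, Hspa1a, Hspa1b, Atf3 and Ier2) and none at 0, with a summed level of 101.8 to 296.6 CPM in wild type and 527.2 to 1220 CPM in E861A. Among 7 macrophage markers, a source of Tnf, 2 were higher (Cd68 and Fcgr1) and 1 lower (Emr1), with sums of 154.7 to 192.0 CPM in wild type and 161.4 to 184.3 CPM in E861A. None of the macrophage markers was at 0. Of 6 granulocytic and mast cell markers, none at 0, Prtn3 and Ctsg were higher, with sums of 106.2 to 240.1 CPM in wild type and 252.7 to 505.6 CPM in E861A. The 4 megakaryocyte markers, none called or at 0, summed to 238.8 to 471.2 CPM in wild type and 509.0 to 653.4 CPM in E861A, without overlap. Of these sums Pf4 gave 96.9 to 180.4 and 170.3 to 327.6 CPM, and Itga2b gave 116.2 to 259.2 and 252.6 to 311.4 CPM. The groups overlapped for both of these genes, but not for Gp9 and Gp1bb, which gave less. Of 5 endothelial markers, none at 0, Pecam1 was higher and Stab2 lower, with sums of 265.6 to 326.9 CPM in wild type and 234.6 to 367.9 CPM in E861A. Their part in the changes of the TNF family was not tested.

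The counts of called members rested on the choice of libraries and on the model. With sex in the fit, genotype was estimated from wild type 2, the one male control, against the mutants, as among males alone. These fits are not separate checks, and calls lost in them cannot be credited to sex. When sex entered the fit 4 members were higher (Tnfsf8, Tnfsf10, Tnf and Tnfrsf1b) and 0 lower, and among males alone 2 were higher (Tnfsf8 and Tnfsf10) and 0 lower. Leaving out wild type 17 or E861A 16 gave 5 higher and 0 lower, wild type 15 or E861A 6 gave 9 and 0, E861A 19 gave 8 and 1, and wild type 2 gave 12 and 2. Tnfsf9 and Cd40 lost their calls without each library but wild type 2 (adjusted p up to 0.341 and 0.368 over all alternatives). Ltb, Tnfrsf12a and Tnfrsf1a lost theirs without wild type 17 and without E861A 16, and Tnfrsf23 also without E861A 19. For the signalling lists the fit with sex gave 14 higher and 0 lower and males alone gave 8 and 0. Wild type 2 was among the controls behind these calls, so its place beside the mutants is no separate check. It lay below all 3 E861A libraries in each of the 11 genes called higher. The mutant mean stood 45.6-fold above it for Tnfsf10, 6.85-fold for Tnf, 2.27-fold for Tnfsf9, 1.94-fold for Cd40 and 1.71-fold for Tnfrsf1a. For the lower genes wild type 2 stood 1.81-fold above the mutant mean for Tnfrsf14 and 1.34-fold for Tnfrsf21. The authors' deposited table listed 27 members and put 12 above and 2 below wild type at its adjusted p under 0.05, which are the same 13 as here and Tnfsf14. No site in the authors' table of 6012 editing sites was annotated to a member. Of 20 annotated to signalling genes, 17 had a lower edited share of covering reads in E861A and 3 a higher one (in Birc2, Casp8 and Traf3, with 1 to 4 edited reads each in E861A), and no test was run. The direction over all 6012 sites was not counted, so this is no result about signalling genes in particular. Several of the 20 sites had few covering reads, such as 2 in each genotype for that in Icam1. The site with the most wild-type reads, in the 3′ UTR of the death receptor adaptor gene Fadd (chromosome 7, 151765578, NCBIM37), was edited in 14 of 82 reads in wild type and 3 of 38 in E861A.

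**Figure D5:**
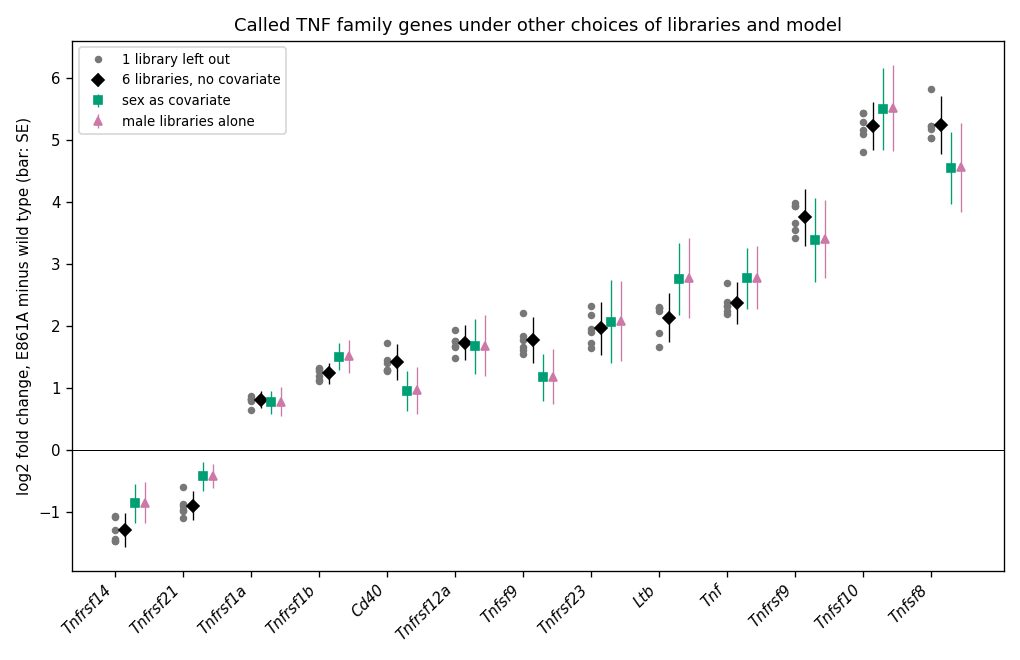
Fitted log2 fold change of the 13 called TNF family genes with all 6 libraries, with sex as a covariate, in the male libraries alone (each with its SE) and with 1 library left out at a time (grey). All points keep their side of 0, and Tnfrsf21 comes nearest to it at -0.41.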

How the data were processed

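The members and gene lists were chosen with earlier results of these data known. The authors deposited raw read counts per gene, 35280460 to 43733715 reads per library over 37576 Ensembl genes (NCBIM37). HTSeq, TopHat2 (2.0.8), Trimmomatic (0.30), edgeR and limma are among the tools that the submitters' processing notes name, tied to no file. The authors' deposited table gives log2 fold changes and adjusted p-values, per the file headers as wild type minus mutant, turned here. The site table gives covering-read counts and editing levels as a fraction, per the file headers, and was searched for members and signalling genes.

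Counts were tested with edgeR 4.0.16 in R 4.3.3: filterByExpr, TMM factors, robust quasi-likelihood fit, Benjamini-Hochberg over 16511 genes. CPM are reads per 1000000 of TMM-scaled totals. Each SE is the absolute log2 fold change divided by the root of its F statistic. The fit was tested on simulated data. Replicates differed by more than counting error (chi-square per degree of freedom 37.3 to 116.0). Alternatives were DESeq2 1.42.0, other normalization and filters, sex, and libraries left out. All called members were named, the others by level or reads, and 4 genes of smallest p per list.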

Additional observations from a re-analysis of the deposited data

How the results depend on the processing

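No paired analysis was possible because the labels used here pair no wild-type liver with a mutant one. With all 6 libraries 11 members were higher and 2 lower, and 22 signalling genes were higher and 2 lower. When sex entered the fit these were 4 and 0, and 14 and 0. That fit sets the mutants against wild type 2, the one male control. Among males alone, with 1 wild-type library assumed to vary like the others, they were 2 and 0, and 8 and 0. DESeq2 gave 3 lower members and 4 lower signalling genes, and leaving out the low-count filter gave 1 lower signalling gene. Over all genes, 1283 higher and 703 lower with all 6 libraries became 530 and 39 with sex in the fit. With 1 library left out, higher members ranged from 5 to 12, lower members from 0 to 2, higher signalling genes from 13 to 22 and lower ones from 0 to 7. Of the 11 higher members 2 (Tnfsf8 and Tnfsf10) were called in each alternative, and neither of the 2 lower ones was.

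No called member changed sign. Members without a call did so as follows. When sex entered the fit and among males alone Tnfsf13 stood at -0.64 and -0.62, Tnfsf13b at -0.45 and -0.44, Tnfrsf13c at 0.62 and 0.63 and Tnfrsf19 at -0.39 and -0.39. With 1 library left out, Tnfrsf22 ranged from -0.33 to 0.18, Tnfsf13 from -0.21 to 0.69, Cd27 from -0.26 to 0.21, Tnfrsf13c from -0.31 to 0.50, Tnfrsf18 from -0.61 to 0.66 and Tnfrsf19 from -0.0235 to 0.75. DESeq2 gave -0.0009 for Cd27. Other folds that moved by over 1.5 times without a change of sign were those of Tnfrsf11b and Tnfsf13b without a library (0.20 to 1.70 and 0.27 to 2.05), of Tnfsf15 without wild type 17 (2.13) and of Tnfsf8 without wild type 2 (5.83). When sex entered the fit Tnfrsf11b stood at 0.10, Tnfsf8 at 4.55, Ltb at 2.76, Tnfsf9 at 1.18 and Tnfrsf18 at -1.16, and among males alone at 0.11, 4.56, 2.77, 1.19 and -1.16. The cause was not tested.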
